A study of Arabidopsis thaliana with 19 samples.

Results

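Sorted cells of 2 populations that carry the same epidermal label were compared, those marked by the AtML1 reporter and those marked by the HMG reporter. The arrays were taken by their titles, 2 for AtML1 (replicates 1 and 3) and 3 for HMG (replicates 1, 2 and 3), which is 5 of the 19 arrays of the series. Transcript levels were measured on Affymetrix ATH1 arrays, where a set of short oligonucleotide probes represents each transcript and gives a signal, a linear brightness in arbitrary units that the authors scaled to the same average on every array. The other 14 arrays hold the reporters KAN1 (labelled organ circumference, n = 3), LAS (adaxial, n = 2), HDG4 (subepidermal, n = 3), AtHB8 (xylem, with the word stem, n = 3) and S17 (phloem, n = 3). All plants of both groups had the same genotype, ap1-1;cal1-1, which piles up meristems at the shoot tip where flowers would form, and were grown for 28 days. Shoot apices were turned into protoplasts, fluorescent cells were sorted, and the RNA was amplified in 2 rounds before labelling, so both groups share the mutations, the enzyme treatment and the amplification. No wild-type and no unsorted control was among the samples. The population of each reporter is defined by the activity of a promoter in 1 reporter line. The gene behind the HMG promoter is not given in the sources used here. The labels do not say whether arrays of a reporter came from separate plants, so the p-values rest on the spread between these arrays, which may be technical.

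The epidermis of the shoot apex is the outermost cell layer of the meristem and of the young organs that it makes. Its identity is set by homeodomain-leucine zipper factors of class IV, among them ATML1 and PDF2, which bind a short promoter element found in many genes of the layer. Epidermal cells build the cuticle, a cover of cutin polyester and wax made from very-long-chain fatty acids, and in many plants they also store flavonoids that absorb ultraviolet light. Layer and position are separate matters: an epidermal cell can sit on the meristem dome, on a boundary or on either face of an organ.

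A probe set was tested where it was called present, by the detection call in the authors' table, on all arrays of AtML1 or on all arrays of HMG. Of 21021 probe sets in that table, 12087 were tested, and 10872 of them were present on all 5 arrays. Differences are given on the scale of log2(signal + 1), AtML1 minus HMG, so a positive value is higher in AtML1. A probe set was called different in limma's test where its p, adjusted by Benjamini and Hochberg's method, was under 0.05 and its difference was 2-fold or more, with a spread estimated from all 19 arrays. Values of single arrays are given in the order AtML1 replicates 1 and 3, then HMG replicates 1, 2 and 3.

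Array quality did not part the 2 groups. The ratio of the 3' to the 5' probe sets of actin, which rises as RNA is degraded or amplified from its end, was 11.9 and 12.5 in AtML1 and 19.7, 7.56 and 8.57 in HMG, so the highest value of the 5 arrays was that of HMG replicate 1. The same ratio for GAPDH was 2.48 and 2.52 in AtML1 and 2.56, 1.93 and 2.28 in HMG. Median signals lay between 151 and 175 on the 5 arrays.

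Of 12087 probe sets tested, 610 were called different between AtML1 and HMG cells, which is 5.05%. Of these, 285 were higher in AtML1 (2.36% of those tested) and 325 higher in HMG (2.69%). The share of calls that were higher in AtML1 was therefore 46.7%, and it became 62.4% where each array was centred on its median, a scaling that moved the median of all differences from -0.02 to 0.07. Without a minimum on the fold, 1595 probe sets (13.2%) had an adjusted p under 0.05. Before adjustment, limma's p was under 0.05 for 3605 (29.8%), so the count of calls does not bound how many transcripts differ. Among the 610 calls, 461 were of probe sets present on all 5 arrays. The others passed the detection filter through 1 reporter only, so their direction is not free of the filter. Of all differences, 92.9% lay within 1 on the log2 scale. The median absolute difference between the 2 reporters was 0.35, against 0.23 between the 2 AtML1 arrays and 0.30 between pairs of HMG arrays. The arrays of the 2 reporters did not overlap for 5442 probe sets (45%), so a lack of overlap alone says little with 2 against 3 arrays. In pooled RNA of this kind, fewer cells of a type and less RNA per cell cannot be told apart.

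**Figure D1:**
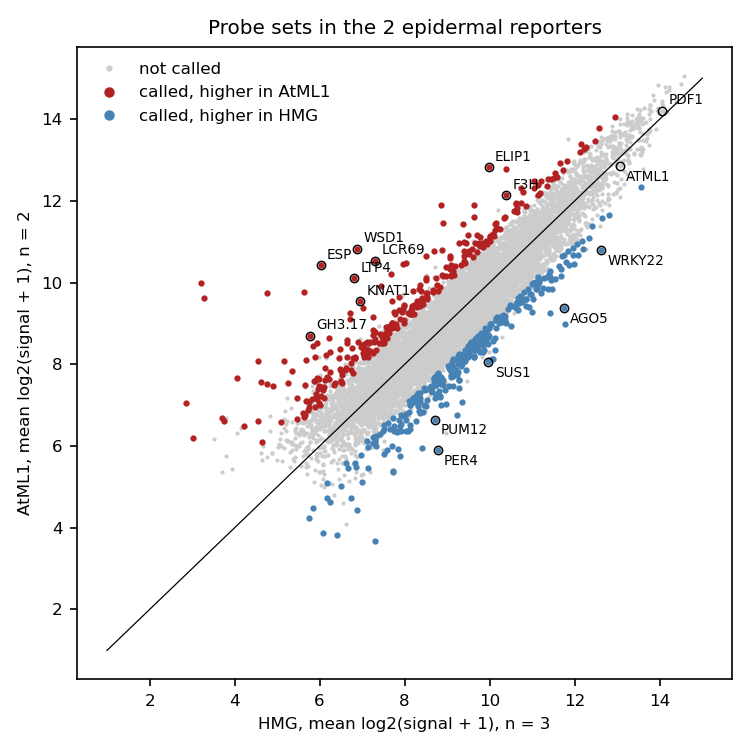
Mean log2(signal + 1) of each of the 12087 tested probe sets in HMG (horizontal axis, n = 3) and AtML1 (vertical axis, n = 2); the line marks equal levels, red points are called higher in AtML1, blue points higher in HMG and grey points are not called. Most points lie along the line, with ATML1 and PDF1 near its upper end, and the red points reach farther from it than the blue ones.

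The number of calls rested on single arrays. It was 364 without AtML1 replicate 1, 407 without AtML1 replicate 3, 959 without HMG replicate 1, 547 without HMG replicate 2 and 394 without HMG replicate 3. Calls higher in AtML1 moved most, to 132, 164, 517, 248 and 163 in the same order, while calls higher in HMG stayed between 231 and 442. When each of the 5 arrays was left out in turn, 139 probe sets were called every time, 61 of them higher in AtML1 and 78 higher in HMG. Of these, 39 were also called where only the 5 arrays were fitted, without the spread of the other reporters. Among the genes named below, ELIP1, ALDH11A3, POK1, MRLK and FKD1 stayed called on every leave-out. In limma's fit of only the 5 arrays they were not called (adjusted p from 0.0526 to 0.0624).

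Set beside the other reporter pairs, which share arrays with one another, AtML1 and HMG had the fewest calls of all 21 pairs. The next pair was LAS and HDG4, with 5.11% called, followed by AtML1 and LAS at 6.41%, HMG and LAS at 7.93%, HMG and HDG4 at 8.50% and AtML1 and KAN1 at 8.84%. AtML1 and HDG4 differed in 13.3%, and the pair with the most calls, LAS and S17, in 36.5%. Pairs of 2 arrays have less power than pairs of 3, so the counts are not a strict ranking. The root mean square difference, which needs no test, was also lowest for AtML1 and HMG, at 0.58 against 0.66 for LAS and HDG4. The median absolute difference was not: it was 0.35 for AtML1 and HMG and 0.24 for LAS and HDG4. Across the tested genes, which are not independent replicates, single AtML1 arrays correlated with HMG arrays at 0.882 to 0.923, with KAN1 arrays at 0.889 to 0.907 and with LAS arrays at 0.881 to 0.911, ranges that overlap. Within reporters, the 2 AtML1 arrays correlated at 0.9625 and pairs of HMG arrays at 0.924 to 0.966, the lowest being HMG replicates 1 and 3. HDG4 arrays correlated at 0.844 to 0.879 with HMG arrays and at 0.807 to 0.841 with AtML1 arrays, ranges that do not overlap.

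**Figure D2:**
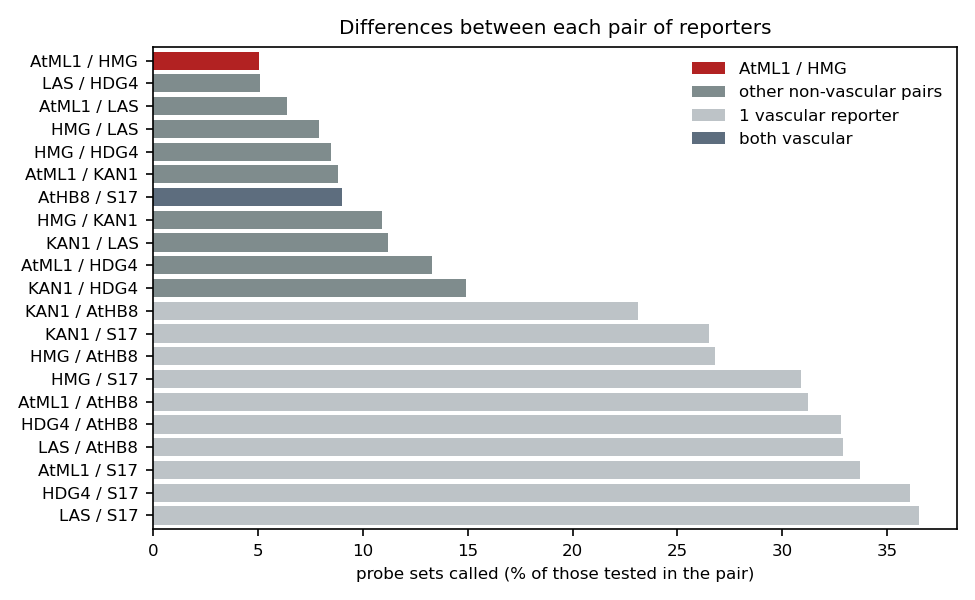
Share of tested probe sets called different (horizontal axis, in percent) in each of the 21 pairs of reporters, by the same test and threshold, with the AtML1 and HMG pair in red. That pair has the lowest share, 5.05%, and the pairs that set a vascular reporter (AtHB8 or S17) against one of the other 5 have the highest, while AtHB8 and S17 differ from each other in 9.01%.

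Epidermal marker genes were bright in both populations and also in KAN1 cells. ATML1 (AT4G21750), the factor whose promoter marks the AtML1 cells, had signals of 7366 and 7307 in AtML1 and 7478, 7963 and 10344 in HMG. All 3 HMG arrays lay above both AtML1 arrays, by little: the difference was -0.21 ± 0.33 SE, with a 95% interval of -0.90 to 0.48 (adjusted p = 0.702). Means in the remaining reporters were 5223 ± 228 (SD, n = 3) in KAN1, 3180.5 ± 1003 (n = 2) in LAS and 332 ± 149.8 (n = 3) in HDG4, and 97.3 and 118 in the vascular reporters. PDF1 (AT2G42840), an epidermal protein gene that ATML1 regulates, gave 17741 and 20245 against 19126, 16452 and 15652, and the arrays overlapped (0.16, adjusted p = 0.814), with KAN1 cells at 16558 ± 1768 (n = 3). PDF2 (AT4G04890), the close relative of ATML1, gave 4333 and 4339 against 4884, 5391 and 6265, again with a difference of -0.34 that did not pass the test. The receptor kinase ACR4 (AT3G59420) gave 1755 and 2020.4 against 2602, 2466 and 2208 (-0.36, adjusted p = 0.284), and the lipid transfer protein LTP1 (AT2G38540) 25892 and 30616 against 17872, 18553 and 17198 (0.66, adjusted p = 0.123). KAN1 cells had 21860.4 ± 2563 (n = 3) for LTP1, between the 2, so PDF1 and LTP1 did not set both populations apart from KAN1. For ATML1 and ACR4 all KAN1 arrays lay below all arrays of AtML1 and HMG, at no more than 5487 and 971.

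Of 16 epidermal identity genes, 13 were tested and none was called by limma in either direction, against 5.05% of all probe sets. Their median difference was -0.36, against -0.02 over all, and 10 of the 13 were lower in AtML1. The values ran from -0.94 for HDG12, a class IV homeodomain gene, to 0.66 for LTP1. In 7 of the 13 all HMG arrays lay above both AtML1 arrays, against 2845 of all 12087 probe sets. All 7 did so by less than 2-fold. Without HMG replicate 1, 2 of the 13 were called higher in HMG.

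Most markers of the inner tissues were at or near background in both. Of 13 procambium and xylem genes with a probe set, 10 were called absent on all 5 arrays, among them ATHB8, the gene of the xylem reporter, at 3.65 and 5.02 and 3.04, 2.84 and 3.96, against a mean of 9303 in AtHB8 cells. Of 14 phloem genes, 8 were absent on all 5, among them the phloem regulator APL and the sugar exporter SWEET12. Of both lists 3 genes were present on all 5 arrays, and none of them was called. They were MP, an auxin response factor, at 1895 and 1815 against 2514, 3003 and 2410.2, the transcription factor LHW at 1731 and 1929 against 2587, 1729 and 1841, and the proton pump AHA3 at 556 and 550.2 against 399, 396 and 190.0. The remaining genes had mixed calls. KAN1 and HDG4, whose promoters mark other populations, were called absent on all 5 arrays. LAS (AT1G55580), a boundary regulator and the gene of the adaxial reporter, was dim in both, at 167 and 175 against 201, 204 and 192, far below its mean of 5973 ± 92.1 in LAS cells. SPCH, which starts the stomatal lineage, and WUS, which marks the centre of the meristem beneath the epidermis, were called absent on all 5 arrays.

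Of 38 cuticle and wax genes, 33 were tested, and 2 of them, WSD1 and CER4, were called higher in AtML1 and none higher in HMG. That is 6.1% of the list, near the 5.05% of all probe sets, and the median was 0.11. Where only probe sets present on all 5 arrays were tested, 1 of 31 was called, against 475 of 10872 over all. FDH (AT2G26250), an elongase-like condensing enzyme needed to keep organs apart, gave 7779.6 and 7797 and 5297, 7936 and 8924, with the AtML1 values inside the range of HMG (0.11, adjusted p = 0.867). The elongases KCS1 (difference -0.14, interval -0.72 to 0.44) and KCS6 (-0.36, -1.68 to 0.97) and HTH, which acts in cutin formation (-0.11, -0.47 to 0.25), did not pass the test either. WSD1 (AT5G37300), the wax synthase that joins fatty alcohols to fatty acids, gave 1693 and 1958 in AtML1 and 224, 126 and 57.1 in HMG, the largest difference among genes with a symbol that were present on all 5 arrays. It was 15.4-fold higher in AtML1 (3.94 ± 0.87 SE, adjusted p = 0.00983). CER4 (AT4G33790), the reductase that makes the fatty alcohols, gave 259 and 289.9 against 32.5, 62.1 and 61.9 (2.43 ± 0.53 SE, adjusted p = 0.00919), and was present on 2 of the 3 HMG arrays.

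Both calls rest on having 2 AtML1 arrays. Without AtML1 replicate 1 the adjusted p was 0.063 for WSD1 and 0.0578 for CER4, and without AtML1 replicate 3 it was 0.0646 and 0.0633, with differences of 2.35 to 4.05. Outside the list, LTP4 (AT5G59310), another lipid transfer protein gene, gave 1209 and 1002 against 133, 76.6 and 134, 9.84-fold higher in AtML1 (adjusted p = 0.00567, and 0.054 without AtML1 replicate 1). CYP96A4 (AT5G52320), a cytochrome P450 of the family that holds the wax alkane hydroxylase, was called absent on all HMG arrays, with 182 and 183 against 33.7, 18.8 and 27.8, and was at least 6.19-fold higher in AtML1 (adjusted p = 0.0342). Its adjusted p was between 0.0762 and 0.154 without either AtML1 replicate or without HMG replicate 2 or 3. That alkane hydroxylase itself, MAH1, and the alkane-forming gene CER1 had differences of 1.20 and 0.99 that did not pass (adjusted p = 0.522 and adjusted p = 0.243). The genes of this group that differed were also high in the organ circumference population: KAN1 cells had 1492 ± 127 for WSD1, 274 ± 42.7 for CER4, 798 ± 132 for LTP4 and 149 ± 34.9 for CYP96A4 (SD, n = 3 each). LAS cells, by contrast, had 84.5 ± 55.3 for WSD1 and 11.9 ± 4.28 for LTP4 (n = 2).

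Genes of flavonol synthesis were the list with the highest share of calls, all higher in AtML1. Of 13 flavonoid genes, 10 were tested and 4 were called, which is 40% against 2.36% of all probe sets in that direction, with a median of 1.20. Where only probe sets present on all 5 arrays were tested, 3 of 8 were called, against 215 of 10872 over all in that direction. In 7 of the 10 both AtML1 arrays lay above all HMG arrays, against 2597 of all 12087 probe sets. Of the 10 differences 9 were positive, against 5882 of all 12087. The pathway runs from chalcone synthase (CHS) through chalcone isomerase (CHI) and flavanone 3-hydroxylase (F3H) to flavonol synthase (FLS1). CHS gave 15205 and 9060.4 against 4519.8, 4202 and 2574, a difference of 1.68 that did not pass the test (adjusted p = 0.162). CHI (AT3G55120) gave 2639 and 1517 against 739, 629 and 522 (3.20-fold higher, adjusted p = 0.00518). F3H (AT3G51240) gave 6018 and 3369.8 against 1396, 1465 and 1171 (3.36-fold, adjusted p = 0.0125). FLS1 (AT5G08640) gave 9199 and 5321 against 1600.2, 1336 and 1139 (5.20-fold, adjusted p = 0.04). In each of these, both AtML1 arrays lay above all HMG arrays, and AtML1 replicate 1 lay above replicate 3. The 3'-hydroxylase F3PRIMEH (AT5G07990, also known as TT7) was dimmer, with 259.9 and 151 against 89.1, 38.1 and 69.9, and just passed (3.16-fold, adjusted p = 0.0488). It was called present on 1 of the 3 HMG arrays, so it entered the test only through AtML1.

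The summed signal of the flavonoid genes was 43869 and 26999 on the AtML1 arrays and 15159, 13751 and 10892 on the HMG arrays. AtML1 replicate 1 exceeded replicate 3 for 9 of the 10 genes, against 50.4% of all probe sets. Without AtML1 replicate 1 none of the 4 kept its call, with adjusted p between 0.0859 (CHI) and 0.3 (F3PRIMEH) and differences of 1.27 to 1.98, and the median of the list was 0.90. Without AtML1 replicate 3, HMG replicate 2 or HMG replicate 3, CHI and F3H kept their calls, while the adjusted p of FLS1 was 0.0981, 0.0824 and 0.107 and that of F3PRIMEH 0.0925, 0.152 and 0.0909. Regulators of the pathway had smaller differences: MYB12 and MYB111, which activate flavonol genes, had differences of 0.56 and -0.39 (adjusted p = 0.327 and adjusted p = 0.568). Unlike the wax genes, the flavonol enzymes were also bright in LAS cells, where FLS1 was 3962 ± 623 (n = 2) and F3H 2633 ± 268.

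Genes next to the list in function were taken by the rule on the largest differences. CHIL (AT5G05270), a chalcone isomerase-like protein, gave 2092 and 968 against 396, 297 and 149 (5.46-fold higher in AtML1, adjusted p = 0.0132), and 4CL3 (AT1G65060), a coumarate ligase that feeds the pathway, 2412 and 1059 against 454, 505 and 211 (4.38-fold, adjusted p = 0.0481). Neither is firm: CHIL had an adjusted p of 0.154 without AtML1 replicate 1 and 0.0561 without HMG replicate 3, and 4CL3 lost its call without any of the 5 arrays, with adjusted p from 0.0511 (without HMG replicate 1) to 0.321 (without AtML1 replicate 1). ELIP1 (AT3G22840), an early light-induced chloroplast protein, gave 9839 and 5370.3 against 2001, 991 and 519, 7.19-fold higher in AtML1 (2.85 ± 0.48 SE, adjusted p = 0.00261), and stayed called without any 1 array. Its means were 1261 ± 180.3 in KAN1 and lower in the others, so AtML1 held the highest level of the 7 reporters. KAT5 (AT5G48880), a thiolase of fatty acid breakdown, gave 2234 and 873 against 475, 271 and 116 (5.65-fold, adjusted p = 0.00459, and 0.0828 without AtML1 replicate 1).

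**Figure D3:**
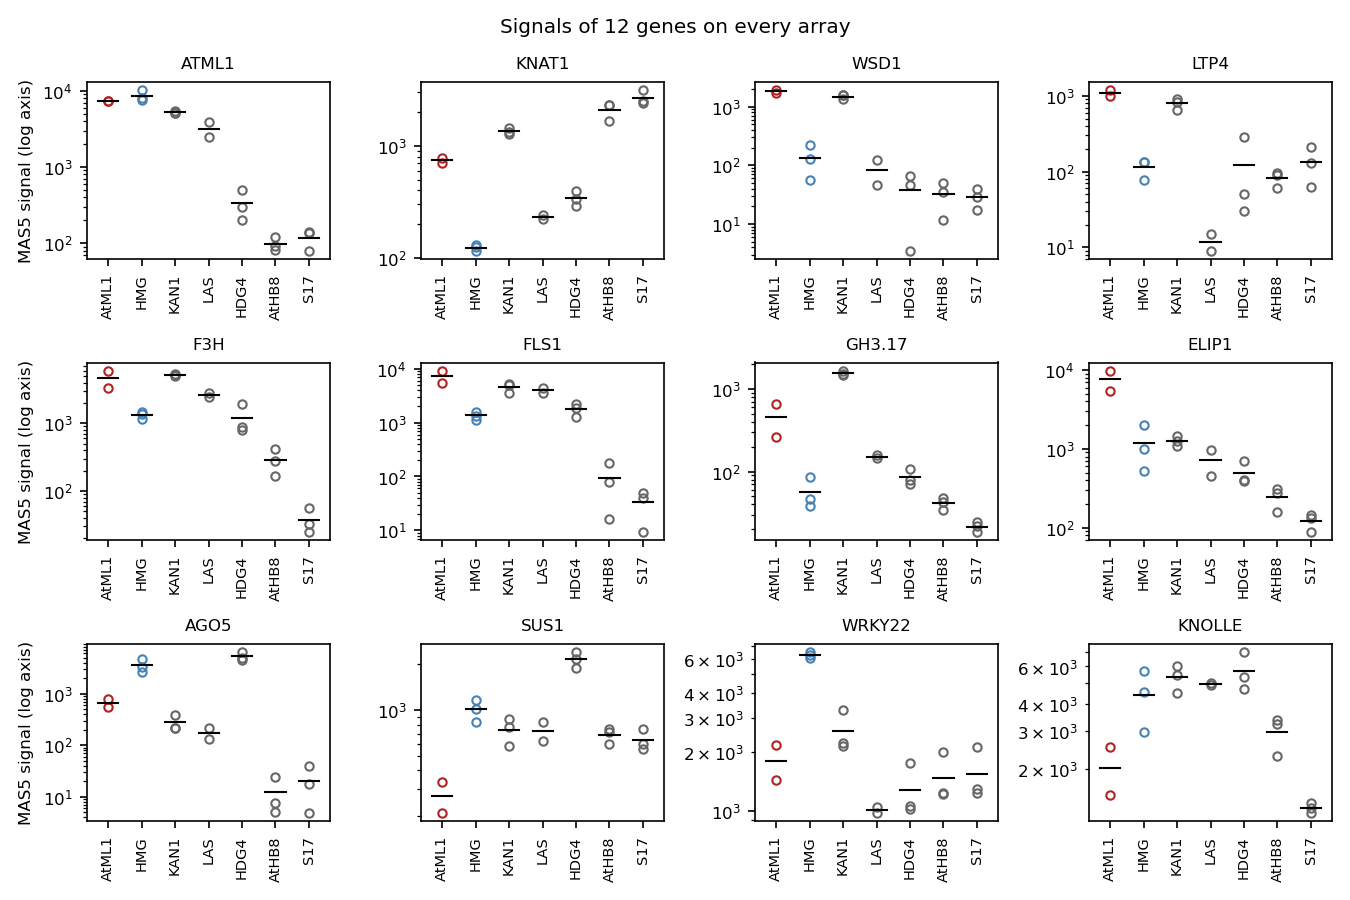
MAS5 signal (vertical axis, log scale, with its own range in each panel) of 12 genes on every array of the 7 reporters; circles are arrays, bars are means, red marks AtML1 and blue HMG. ATML1 is bright in both epidermal reporters, KNAT1 through ELIP1 lie higher in AtML1, and AGO5 through KNOLLE lie higher in HMG.

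KNAT1 (AT4G08150), a KNOX homeobox gene that acts in the meristem and in stem growth, had the smallest adjusted p of the named genes. Its signals were 779 and 707 in AtML1 and 124, 132 and 115 in HMG, 2 tight groups far apart. It was 5.97-fold higher in AtML1 (2.58 ± 0.19 SE, adjusted p = 1.92e-06) and stayed called when any array was left out, with adjusted p up to 0.000137. HMG was the lowest of the 7 reporters for KNAT1: means were 232 ± 12.5 in LAS (n = 2), 343 ± 52.2 in HDG4, 1347 ± 89.1 in KAN1, 2098 ± 368 in AtHB8 and 2687 ± 418 in S17. The related KNOX gene STM (AT1G62360), which keeps meristem cells undifferentiated, did not follow it, with 3993 and 3402 against 4097, 4016 and 3861 (-0.11, interval -0.46 to 0.23). Of 16 meristem genes tested, KNAT1 was the only one called, 6.2% against 5.05% of all probe sets. Of the 16 differences 12 were negative, with a median of -0.31, which was -0.17 without AtML1 replicate 1. AGO10, an argonaute of the meristem, was lower in AtML1 by less than 2-fold (-0.90, adjusted p = 0.00514), and CLV3, the peptide gene of the stem cells, was absent on both AtML1 arrays and dim in HMG (209, 244 and 144, adjusted p = 0.412).

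Among genes of the 2 faces of the organ, 1 of each list was called. With lists this short, 1 call says little beside the 5.05% of all probe sets. Where only genes present on all 5 arrays were tested, none of 4 abaxial genes and 1 of 5 adaxial genes was called. Of 5 abaxial genes tested, YAB3 (AT4G00180), a YABBY factor of the lower face, was called, with 198 and 265 in AtML1 against 62.6, 56.1 and 18.0 in HMG (5.61-fold higher, adjusted p = 0.0212). FIL (AT2G45190), its partner in that role, was at 922 and 967 against 927, 988 and 562 (0.24, adjusted p = 0.7), and KAN2 had a difference of 1.53 (adjusted p = 0.0943). The abaxial factors ARF4 and ETT were lower in AtML1 at less than 2-fold (-0.84 and -0.60, adjusted p = 0.0229 and adjusted p = 0.0295). Of 6 adaxial genes, 1 was called: REV (AT5G60690), a class III homeodomain factor, gave 1936 and 1573 against 2833, 3419 and 5226, 2.12-fold higher in HMG (adjusted p = 0.027). Its relatives PHB, CNA and PHV were also negative (-0.93, -0.69 and -0.41) without passing, and the median of the list was -0.61. YAB3 lost its call without AtML1 replicate 1 (adjusted p = 0.0895), AtML1 replicate 3 (0.132) and HMG replicate 3 (0.0877), and REV without the same arrays (0.0885, 0.174 and 0.105).

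Of 16 auxin genes tested, 1 was called, which is 6.2% against 5.05% of all probe sets. The median was 0.42 against -0.02 over all, and it was 0.18 without AtML1 replicate 1 and 0.20 without HMG replicate 3. In 6 of the 16 both AtML1 arrays lay above all HMG arrays, against 2597 of all 12087 probe sets. Where only genes present on all 5 arrays were tested, none of 15 was called. GH3.17 (AT1G28130), an enzyme that conjugates auxin to glutamate, gave 261 and 659 in AtML1 and 46.5, 85.5 and 37.9 in HMG, where it was present on 1 of 3 arrays. It was 7.66-fold higher in AtML1 (2.94 ± 0.34 SE, adjusted p = 0.000286) and stayed called without any 1 array. KAN1 cells, at 1562 ± 102 (n = 3), were higher still. The influx carrier AUX1 (-0.57, adjusted p = 0.176) did not pass. TRY (AT5G53200), an R3 MYB that holds back trichome formation, was at 319.9 and 256 against 131, 66.6 and 75.0 (3.27-fold higher in AtML1, adjusted p = 0.0199). It was the only call among 4 trichome genes tested, too few to compare with the 5.05% of all probe sets. Where only genes present on all 5 arrays were tested, none of 3 trichome genes was called. The adjusted p of TRY was 0.142 and 0.0749 without AtML1 replicates 1 and 3 and 0.0653 and 0.065 without HMG replicates 2 and 3.

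Most photosynthesis genes had a positive difference. Of 28 such genes, 22 were tested, 18 had a positive difference and 2 were called, both higher in AtML1, which is 9.1% against 2.36% of all probe sets in that direction. The median was 0.60 against -0.02 over all, and it was 0.35 without AtML1 replicate 3, where none was called. All 22 but 2 were higher on AtML1 replicate 3 than on replicate 1. The summed signal was 35137 and 47225 on the AtML1 arrays and 29194, 28818 and 21282 on the HMG arrays. LHCB3 (AT5G54270), a light-harvesting protein of photosystem II, gave 1329 and 1927 against 687, 752 and 588 (2.38-fold, adjusted p = 0.0287), and PSAH2 (AT1G52230), a subunit of photosystem I, 912 and 1256 against 352, 417 and 323 (2.95-fold, adjusted p = 0.015). Neither stayed called without AtML1 replicate 3 (adjusted p = 0.215 and 0.126), HMG replicate 3 (0.0873 and 0.051) or AtML1 replicate 1 (0.0708 and 0.055), while 5 of the list were called without HMG replicate 1. Both genes were brighter in KAN1 and S17 cells than in HMG, for LHCB3 at 3683 ± 617 and 3877 ± 1036.

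The rule on the largest differences toward AtML1 also named LCR69, ALDH11A3, CYP706A3 and SPL5. LCR69 (AT2G02100), which encodes a small cysteine-rich defensin-like protein, gave 1219 and 1807 against 224, 181 and 95.8, 9.38-fold higher (3.23 ± 0.38 SE, adjusted p = 0.0003), and HMG was the lowest of the 7 reporters. ALDH11A3 (AT2G24270), a dehydrogenase that oxidises glyceraldehyde 3-phosphate, gave 423 and 875 against 139, 134 and 60.0 (5.82-fold, adjusted p = 0.00164). Both stayed called without any 1 array, and both were highest in the phloem reporter S17, at 11838 ± 1098 and 5479 ± 525 (n = 3). CYP706A3 (AT5G44620), a cytochrome P450 that oxidises terpenes in flowers, gave 3270.2 and 2453 against 825, 756 and 178 (5.88-fold, adjusted p = 0.00447, and 0.052 without AtML1 replicate 1). SPL5 (AT3G15270), a factor that promotes flowering, gave 519.8 and 852 against 195, 170.1 and 65.2 (5.11-fold, adjusted p = 0.0163), and lost its call without AtML1 replicate 1, AtML1 replicate 3 or HMG replicate 3 (adjusted p = 0.0593, 0.133 and 0.0692).

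Some genes were detected on one side only. Of the tested probe sets, 31 were present on both AtML1 arrays and absent on all HMG arrays, and 16 of these were called. In the opposite direction, 167 were present on all HMG arrays and absent on both AtML1 arrays, and 31 were called. These probe sets passed the detection filter only through the reporter in which they were bright, so the filter had chosen their direction, and the counts and adjusted p are given as a description. Over all tested probe sets, 2.36% were called higher in AtML1 and 2.69% higher in HMG. The 2 classes ask for different numbers of present and absent arrays, so 31 and 167 cannot be compared directly. The fold is a bound, taken from means of log2 values: the mean of the brighter reporter over a floor for the dimmer one, which is on each array its own signal or the lowest signal of any present probe set, whichever is higher. Where all dim signals lie above those lowest signals, the fold is the plain estimate and is given without the words at least. ESP (AT1G54040), which steers the breakdown of glucosinolates toward nitriles, gave 1277 and 1467 in AtML1 and 74.1, 46.7 and 76.4 in HMG, at least 21.0-fold higher (adjusted p = 0.0102), with KAN1 cells at 1375 ± 34.8 and S17 cells at 13160.1 ± 494. Without AtML1 replicate 1 its adjusted p was 0.0655, and without replicate 3 0.0665. FRO8 (AT5G50160), a ferric reductase, gave 111 and 84.8 against 9.38, 19.8 and 10.2 (at least 3.70-fold, adjusted p = 0.00022), and the small heat shock protein HSP17.6II 69.4 and 147 against 11.6, 13.0 and 11.7 (at least 3.85-fold, adjusted p = 0.00122). Those 2 stayed called without any 1 array. AtHB23 (at least 2.74-fold, a homeobox gene) had an adjusted p of 0.0531 without AtML1 replicate 1. The gibberellin-regulated GASA6 (at least 4.14-fold, with 86.2 and 204 against 68.0, 0.81 and 2.04) had 0.0806, 0.168, 0.0882 and 0.0909 without AtML1 replicates 1 and 3 and HMG replicates 2 and 3.

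Cell division genes tended the other way. Of 29 such genes, 23 were tested, 21 had a negative difference and 4 were called, all higher in HMG, 4 of 23 against 2.69% of all probe sets in that direction. The median was -0.49. The 4 were the mitotic cyclin CYCB2;2, the Aurora kinase AUR2, the cytokinesis syntaxin KNOLLE and the G1 cyclin CYCD3;3. KNOLLE (AT1G08560) gave 2542 and 1516 in AtML1 and 2966, 4565 and 5699.8 in HMG (2.17-fold higher in HMG, adjusted p = 0.0157), AUR2 (AT2G25880) 585 and 265 and 630.1, 975 and 1114 (2.23-fold, adjusted p = 0.0132), and CYCB2;2 (AT4G35620) 374 and 151 and 433, 508 and 692 (2.24-fold, adjusted p = 0.035). CYCD3;3 (AT3G50070) gave 1532 and 1699.8 and 2388, 3518 and 4288 (2.05-fold, adjusted p = 0.0143). In the first 3 genes AtML1 replicate 3 was the lowest of the 5 arrays and HMG replicate 3 the highest, and AtML1 replicate 1 lay close to HMG replicate 1. The replication genes among them had smaller differences, of -0.43 for MCM2 and 0.21 for PCNA2, and PCNA1, the sliding clamp, was higher in AtML1 at less than 2-fold (0.78, adjusted p = 0.027).

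The summed signal of the division genes was 46709 and 37731 in AtML1 and 41437, 58274 and 63737 in HMG, so the arrays of the 2 reporters overlapped in this sum. Without AtML1 replicate 3 none of the list was called higher in HMG and 1 was called higher in AtML1, with differences of -0.51 for CYCB2;2, -0.59 for AUR2, -0.74 for KNOLLE and -1.11 for CYCD3;3. Without HMG replicate 3 none was called in either direction, with adjusted p of 0.12, 0.0543, 0.0653 and 0.0593 in the same order. Without HMG replicate 2, 2 were called, and without AtML1 replicate 1 or HMG replicate 1, 6 were. The median stayed negative in each case, between -0.75 and -0.28. HDG4 cells had a mean of 5704 ± 1206 for KNOLLE and 953 ± 185 for CYCB2;2 (n = 3). KAN1 cells had 5346 ± 758 and 983 ± 204 (n = 3), and LAS cells 4974 ± 99.2 and 488 ± 133 (n = 2).

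The rule on the largest differences toward HMG named genes outside the list. CYCB2;4 (AT1G76310), another mitotic cyclin, gave 392 and 191 against 617, 1149 and 1454 (3.68-fold higher in HMG, adjusted p = 0.00333, and 0.0532 without AtML1 replicate 3). POK1 (AT3G17360), a kinesin that orients the division plane, gave 179 and 125 against 312, 458 and 644 (3.0-fold, adjusted p = 0.00329) and stayed called without any 1 array. PS1 (AT1G34355), known for the orientation of meiotic spindles, gave 311 and 122 against 491, 612 and 782 (3.15-fold, adjusted p = 0.00653, and 0.112 without AtML1 replicate 3). MRLK (AT3G56100), a receptor-like kinase of meristems, gave 180.5 and 163 against 427, 606 and 938 (3.62-fold, adjusted p = 0.00319) and stayed called without any 1 array.

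Among the other genes named by the rule on the largest differences toward HMG, 5 stayed called when any array was left out. WRKY22 (AT4G01250), a transcription factor of defence signalling, gave 1435 and 2177 in AtML1 and 6247, 6536 and 6066 in HMG, where the 3 arrays were close together. It was 3.55-fold higher in HMG (-1.83 ± 0.30 SE, adjusted p = 0.00255), and HMG held the highest level of the 7 reporters, the next being KAN1 at 2557 ± 643 (n = 3). SUS1 (AT5G20830), a sucrose synthase, gave 208 and 337 against 1022, 839 and 1174 (3.77-fold, adjusted p = 0.000439), with AtML1 the lowest of the 7 reporters. ABCC14 (AT3G62700), an ABC transporter, gave 259.9 and 299 against 899, 1171 and 1126 (3.79-fold, adjusted p = 0.000747). PUM12 (AT5G56510), a Pumilio RNA-binding protein, gave 94.1 and 104 against 397, 303 and 603 (4.18-fold, adjusted p = 0.00107), and IQD26 (AT3G16490), a calmodulin-binding protein, 301 and 351 against 920.3, 1055 and 1414 (3.41-fold, adjusted p = 0.00257).

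AGO5 (AT2G27880), an argonaute that binds small RNAs, had the largest difference toward HMG among genes with a symbol that were present on all 5 arrays. It gave 547 and 798 in AtML1 and 2684, 3275 and 4628 in HMG, 5.20-fold higher in HMG (-2.38 ± 0.63 SE, adjusted p = 0.0221). The arrays of the 2 reporters did not overlap, but the adjusted p was 0.161, 0.0755 and 0.0757 without AtML1 replicate 1, AtML1 replicate 3 and HMG replicate 3. The subepidermal reporter HDG4 was higher still, at 5322 ± 1082 (n = 3), while KAN1 had 277 ± 98.8 and the vascular reporters had means of 12.4 and 20.7. COR47 (AT1G20440), a dehydrin, gave 518 and 743 against 3338, 1538 and 1621 (3.26-fold, adjusted p = 0.0118), and DJ1A (AT3G14990), a protein of oxidative stress tolerance, 527 and 1613 against 3501, 2524 and 2509.6 (3.04-fold, adjusted p = 0.011). Both lost their calls without AtML1 replicate 1 (adjusted p = 0.121 and 0.198), and for DJ1A the difference was then -0.80 and the arrays of AtML1 lay far apart.

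On the side of genes absent in AtML1, PER4 (AT1G14540), a peroxidase, gave 398, 433 and 485 in HMG and 33.3 and 102 in AtML1, 7.36-fold higher in HMG (adjusted p = 0.00869). Without AtML1 replicate 1 its difference was -2.08 in place of -2.88 (adjusted p = 0.127). FKD1 (AT3G63300), known from leaf vein patterning, gave 216, 196 and 215 and 87.7 and 45.8 (3.26-fold, adjusted p = 0.00261) and stayed called without any 1 array. Its level in AtHB8 cells, 1639 ± 212, was far above both. The glutamate receptor-like gene GLR3.4 (3.27-fold) had a difference of -1.11 and an adjusted p of 0.118 without AtML1 replicate 1, and SKS2 (3.67-fold), related to the growth protein SKU5, 0.108 and 0.0533 without AtML1 replicates 1 and 3. Of the named genes on this side, those that lost their call on leaving out the most arrays were PGL1 (5.51-fold), an enzyme of the pentose phosphate pathway, and the ribonuclease RNS1 (at least 4.79-fold). PGL1 gave 525, 439 and 918 in HMG and 35.8 and 318 in AtML1, and lost its call without AtML1 replicate 1 or any 1 HMG array, with adjusted p from 0.0559 to 0.538. Its difference was -2.46 with both AtML1 arrays, -0.90 without replicate 1 and -4.02 without replicate 3. RNS1 lost it without any of the 5 arrays, with adjusted p from 0.0556 to 0.266.

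**Figure D4:**
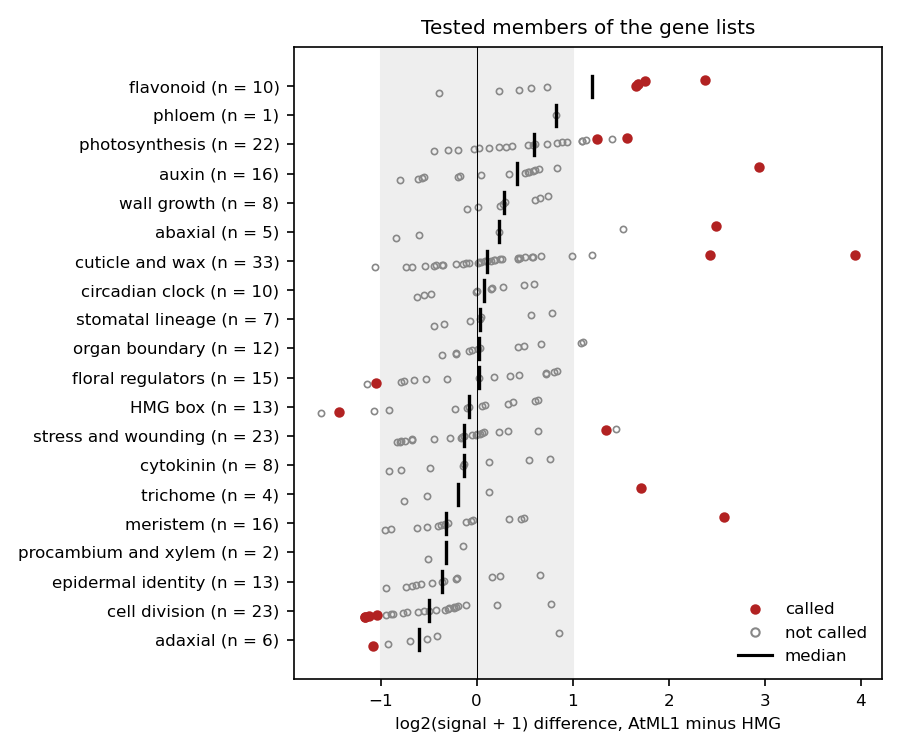
Difference between AtML1 and HMG on the log2(signal + 1) scale (horizontal axis, positive is higher in AtML1) for each tested member of 20 gene lists; filled red points are called, open points are not, thick bars are medians and the grey band marks differences under 2-fold. The flavonoid list has the most calls to the right, with 4, and the cell division list the most to the left, with 4.

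HMG box genes, whose proteins bend DNA or bind chromatin, were listed because of the name of the reporter, whose gene is not known here. Of 14, 13 were tested and 1 was called, which is 7.7% against 5.05% of all probe sets. The call was 3XHMG-BOX2 (AT4G23800), a protein bound to chromosomes in mitosis, at 2063 and 936 against 3433, 3296 and 4668 (2.70-fold higher in HMG, adjusted p = 0.00539). Without AtML1 replicate 3 its difference was -0.86 in place of -1.43, under 2-fold. HMGB15 (AT1G04880), which also carries an ARID domain, gave 388 and 418 against 889, 1178 and 1827, a difference of -1.62 ± 0.62 SE that did not pass (adjusted p = 0.0905). With 16 or 64 in place of 1 added to the signal before the logarithm, it was called, with an adjusted p of 0.0183 and 0.00133. Its means in the other reporters were 107 ± 37.9 in HDG4, 51.9 ± 18.0 in LAS, 38.0 ± 28.6 in KAN1, 27.5 ± 14.4 in AtHB8 and 17.5 ± 8.10 in S17, so its 3 highest arrays among all 19 were those of HMG and the next 2 those of AtML1. HMGB9, of the same subfamily, gave 873 and 858 against 1712, 1966 and 1771 (-1.07, adjusted p = 0.269), and the abundant HMGB1 and HMGB2 had differences of 0.64 and 0.08.

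Floral regulators were detected in both populations in spite of the ap1-1;cal1-1 genotype. Of 15 tested, 1 was called, which is 6.7% against 5.05% of all probe sets. SEP4 (AT2G03710), a MADS-box gene, gave 439 and 306 against 1038, 545 and 775 (2.07-fold higher in HMG, adjusted p = 0.0314). It lost its call without AtML1 replicates 1 or 3 or HMG replicates 1 or 3 (adjusted p = 0.0675, 0.244, 0.0755 and 0.0773). LFY (AT5G61850), which sets floral fate, gave 2269 and 2425 against 3302, 4059 and 4991 (-0.79, adjusted p = 0.0586), and UFO (AT1G30950), its cofactor, 543 and 264 against 751, 728 and 1076 (-1.14, adjusted p = 0.0545). Neither passed, although all HMG arrays were above both AtML1 arrays in each. The transcript of AP1 (AT1G69120), which carries the mutation in these plants, was 2289 and 2288 against 1405, 1631 and 927, higher in AtML1 at less than 2-fold (0.83, adjusted p = 0.0339). Without HMG replicate 2 its difference was 1.00 and it was called.

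Stress and wounding genes were listed as a mark of protoplasting. Of 23 tested, 1 was called, which is 4.3% against 5.05% of all probe sets. The median was -0.13, with 9 positive and 14 negative differences. It was -0.34 (5 positive, 18 negative) under quantile normalization, -0.30 without AtML1 replicate 3, -0.22 without HMG replicate 3 and 0.01 without AtML1 replicate 1, so its sign was not stable. HSP70 (AT3G12580), a heat shock chaperone, gave 236 and 585 against 165, 147 and 126 (2.55-fold higher in AtML1, adjusted p = 0.0243). The value rested on AtML1 replicate 3, without which the difference was 0.70 (adjusted p = 0.323), and the call was also lost without HMG replicate 2 (0.0539) or 3 (0.0773). The jasmonate gene LOX3 (-0.80, adjusted p = 0.00464) and the kinase MPK3 (-0.74, adjusted p = 0.0276) were higher in HMG at less than 2-fold. The summed signal of the list was 126564 and 153187 in AtML1 and 173411, 141440 and 136465 in HMG, ranges that overlap.

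The genes that differed had other places of highest expression. Among the 5 remaining reporters, which do not enter the difference itself but share the estimate of the spread, HDG4 held the highest mean for 130 of the 325 probe sets higher in HMG (40%), against 24.3% of all tested probe sets. AtHB8 was highest for 31.1% of them (17.3% of all), KAN1 for 8.62% and LAS for 4.92%. Of the 285 higher in AtML1, KAN1 was highest for 28.8% (18.9% of all), LAS for 28.8% (23.1%), S17 for 23.9% (16.4%) and HDG4 for 6.32%. The share of LAS was 19.7% without AtML1 replicate 1, below its share of all. These shares are a description over genes, with no test. The share of HDG4 among the genes higher in HMG depended on the AtML1 arrays: it was 24.3% without AtML1 replicate 3, 50.0% without AtML1 replicate 1 and 33.8% without HMG replicate 3. In 127 of the 325, HDG4 lay above both AtML1 and HMG, against 4652 of all 12087 probe sets, which is a similar share. Whether cells of the layer beneath entered either sort was not tested.

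**Figure D5:**
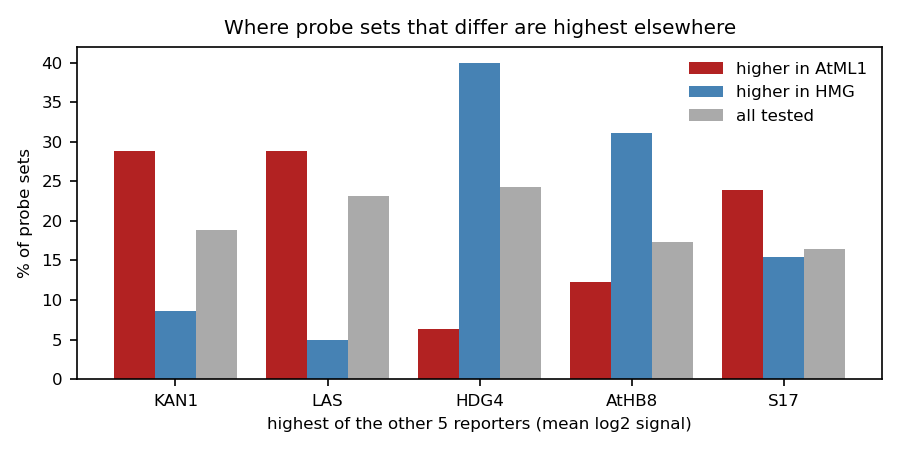
Share of probe sets (vertical axis, in percent) for which each of the other 5 reporters has the highest mean log2 signal, for the 285 higher in AtML1 (red), the 325 higher in HMG (blue) and all 12087 tested (grey). HDG4 and AtHB8 have larger shares of the genes higher in HMG (40% and 31.1%) than of all (24.3% and 17.3%), and KAN1 has 28.8% of those higher in AtML1 against 18.9% of all.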

How the data were processed

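The deposited intensity values are linear MAS5 signals of single-colour ATH1 arrays. The submitters' processing notes name MAS5, its version is not given in the sources used here, and on every array the mean after trimming 2% at each end was 500. The authors' deposited table of averages, within 0.005 of means computed here, gave the detection calls (present, marginal or absent) and loci. Its order of letters was taken as that of the arrays.

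Control probe sets (64) were left out. Probe sets present on all arrays of AtML1 or of HMG were tested with limma 3.58.1 (R 4.3.3) on log2(signal + 1), with 1 mean per reporter over all 19 arrays (12 residual and 4.56 prior degrees of freedom), two-sided. The number of arrays limits the precision. Adding 1 makes differences of dim genes smaller. In simulated data of 12087 probe sets, HMG was given the AtML1 means, and the noise was independent with 1 spread per probe set. There the test recovered 70% of 100 changes of log2 1.5 and 96% of 100 changes of log2 3, with 4 false calls. Shifts shared by many genes of an array were not simulated, so these rates do not carry over to the real arrays.

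Named genes were the 12 largest called differences in each direction among probe sets present on all 5 arrays, without overlap and with a symbol; the 6 largest bounds in each direction among those absent in the dimmer reporter; every called member of 20 gene lists (345 genes, 322 with a probe set, 247 tested, 13 called higher in AtML1 and 7 in HMG); and 24 fixed names. Loci came from the authors' table and symbols from RefSeq, except that members of the lists and fixed names carry the symbols chosen for them. Of the tested probe sets, 11978 matched a RefSeq locus. The members and lists were chosen with earlier results of these data known. Alternatives covered the filter, the added constant, the scaling, the arrays in the fit, array weights, the trend of the spread, a replicate block, the fold minimum and leaving out each array. No sequence or genome coordinate is given for probe sets, since the authors' build is not named in the sources used here; which genes neighbour each other came from RefSeq's table of assembly TAIR10.1.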

Additional observations from a re-analysis of the deposited data

How the results depend on the processing

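Counts of calls moved with the arrays in the fit and with the threshold. With only the 5 arrays of AtML1 and HMG, 75 probe sets were called (40 higher in AtML1, 35 in HMG), 65 of them among the 610; this fit has 3 residual degrees of freedom. With array weights 955 were called, 500 higher in AtML1. Without a fold minimum 1595 were called (718 and 877), and with a 4-fold minimum 62 (46 and 16). Leaving out each array in turn gave 364 to 959 calls, 132 to 517 of them higher in AtML1. The other alternatives gave 439 (64 added to the signal) to 760 calls (filter at the 40th percentile), within 1.5 times of 610. Of 1328 values of 71 named genes under the alternatives, 1112 kept direction and side of the threshold, 197 lost a call (93 of them on leaving out an array) and 10 gained one, for HMGB15, UFO and AP1. The 9 that changed sign were all of genes never called: under quantile normalization FDH -0.155 and PDF1 -0.190, with array weights FDH -0.010 and FIL -0.0015, and 5 on leaving out an array. Over the arrays left out, FDH ran from -0.112 (without HMG replicate 1) to 0.265, FIL from -0.020 (without HMG replicate 3) to 0.386, HTH from -0.276 to 0.055 (without AtML1 replicate 1), KCS1 from -0.262 to 0.018 (without HMG replicate 1) and STM from -0.230 to 0.0011 (without AtML1 replicate 3). The causes of these shifts were not tested.

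No pairing by replicate number was seen, but the deviations of arrays cannot exclude it. Deviations of same-numbered arrays from their reporter means correlated with a median of 0.0027 over 46 pairs (-0.284 to 0.316), above 0.1 in 9 pairs. Between arrays of different number the median was -0.0048 over 108 pairs (-0.316 to 0.257), above 0.1 in 23. In a reporter of 2 arrays the deviations mirror each other, so correlations of opposite sign cancel. A fit with the replicate block called 591 probe sets, 533 of them shared with the 610. Dim probe sets limit what can be seen, since signals called absent still enter the differences, and 2 arrays of AtML1 leave its spread to be taken from the other reporters.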

Other observations

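Of the 610 calls, 312 carry no gene symbol in the tables used here and 298 carry one. The loci below were chosen after their values were seen. AT4G23670, described as related to the major latex protein, gave 848 and 1203 in AtML1 and 6.58, 24.9 and 3.13 in HMG, where it was called absent, and was at least 37.0-fold higher in AtML1 (adjusted p = 9.13e-05), with KAN1 cells at 1365 ± 300.3 (SD, n = 3). AT2G28085, of an auxin-responsive family, gave 839.5 and 742 against 4.53, 50.5 and 2.28 (at least 23.0-fold, adjusted p = 0.00459), and AtML1 was the highest of the 7 reporters, the next being KAN1 at 155 ± 45.8. AT1G06000, described as a flavonol rhamnosyltransferase, gave 2529 and 1269 against 646, 451 and 351 (log2 difference 1.94 ± 0.28 SE, adjusted p = 0.00105). AT5G44630, a sesquiterpene synthase, gave 4836 and 2975 against 516, 786 and 239.7 (3.04 ± 0.45 SE, adjusted p = 0.00107). It lies next to CYP706A3, the terpene oxidase gene that was also higher in AtML1, on chromosome 5 with 0 genes between them in assembly TAIR10.1. Toward HMG, AT1G11210, a protein of unknown function, gave 332 and 784 against 3617, 2874 and 4029 (-2.76 ± 0.30 SE, adjusted p = 0.000177), and AT2G40570, described as a tRNA phosphoribosyl transferase, was at least 5.32-fold higher in HMG (adjusted p = 0.0355).

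Lists not described above gave few calls or none in limma's test. None of 7 stomatal lineage genes, 12 organ boundary genes, 8 cytokinin genes, 10 circadian clock genes and 8 genes of wall growth was called, with medians of 0.03, 0.02, -0.14, 0.08 and 0.28. TMM, a receptor of stomatal patterning, was dim at 125 and 89.9 against 103, 78.0 and 45.2 (0.57, adjusted p = 0.561). Transcripts of the chloroplast genome had 55 tested probe sets, of which 4 were higher in HMG and 0 higher in AtML1. Of all probe sets, 2.69% and 2.36% were called in these directions. Only 2 nuclear photosynthesis genes were called, both higher in AtML1, and neither stayed called without HMG replicate 3. The 16 tested probe sets of the mitochondrial genome had no call.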
